A study of Saccharomyces cerevisiae with 18 samples.

Results

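The comparison described here set the swi6 deletant against wild type budding yeast (Saccharomyces cerevisiae) after both had been exposed to linoleic acid hydroperoxide (LoaOOH), an oxidised fatty acid that acts as an oxidant in cells. It used the 3 arrays whose titles name the deletant with LoaOOH and the 3 whose titles name wild type with LoaOOH, which are 6 of the 18 arrays of the study. Genes on chromosome V, which stood apart from the rest of the genome, were described separately. Of 5449 genes measured, 259 lie on chromosome V and 5190 on other chromosomes.

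Swi6 is the subunit that 2 heterodimeric transcription factors share. SBF pairs it with the DNA-binding protein Swi4 and is known for switching on G1 cyclin, cell wall and budding genes late in G1. MBF pairs it with Mbp1 and is known for DNA replication and repair genes, which it activates at the G1/S transition and represses outside it. Swi6 also carries cysteines, and the study asked whether Cys404 takes part in redox control of the cell cycle.

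The deletant lacks SWI6 and the wild type carries it, and another strain carries Swi6 with C404A, the replacement of that cysteine by alanine. All were grown at 30 °C in synthetic medium lacking leucine. Aliquots of equal size were taken, and LoaOOH was given at 30 µM for 45 min. The labels give no parent strain or mating type, and do not say whether the 3 replicates of a group were separate cultures, so the p-values below measure the spread between these arrays, part of which may be technical. A mixed culture yields one RNA pool, so fewer cells expressing a gene and less of its RNA per cell cannot be told apart.

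Values are log2 signals of Affymetrix probe sets, 1 per gene, and a difference of 1 is a 2-fold change. Differences are deletant minus wild type, tested with limma on all 18 arrays. A gene was called where its p-value, adjusted after Benjamini and Hochberg over 5449 genes, was under 0.05. The medians of the 6 LoaOOH arrays lay between 10.57 and 10.60, and the background level, the 95th percentile of probe sets for another organism, was 4.52. Between arrays of the same group, the SD of the difference across genes was 0.168 to 0.220 for deletant pairs and 0.189 to 0.299 for wild type pairs. In wild type, replicate 1 stood farther from the other 2 than they did from each other. The markers of a cells were present in both strains. STE2, the alpha-factor receptor, averaged 13.80 ± 0.0765 in the deletant and 13.66 ± 0.111 in wild type, while STE3, which alpha cells use to sense a-factor, averaged 8.03 ± 0.138 in the deletant and 8.09 ± 0.0856 in wild type (SD, n = 3 each). None of the 7 a-cell genes and 8 haploid genes listed was called by limma, and 1 a-cell gene and 0 haploid genes had an unadjusted p under 0.05.

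SWI6 (YLR182W, chromosome XII) was at 3.64, 4.33 and 3.13 in the deletant arrays, all below background, against 10.68, 10.29 and 10.65 in wild type. The levels fit the labels, and SWI6 mRNA was at least 64.95-fold lower in the deletant (adjusted p = 3.04e-11). The adjacent gene VTA1 differed by 0.02 (adjusted p = 0.915). The gene on the other side, TOS4, a G1/S target that encodes a chromatin-binding protein, differed by -0.45 (adjusted p = 0.0916). TOS4 was called lower with only the 6 LoaOOH arrays in the fit (adjusted p = 0.0273) and after quantile normalization (0.0498).

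In the deletant a small set of G1 genes was lower, of which TOS6, SVS1, HO and CLB6 fell furthest. Among other lists, 11 of 27 iron genes, 4 of 16 phosphate genes, 3 of 10 arginine genes and 5 of 18 cell wall integrity genes fell. Of the genes for use of poor nitrogen sources 14 of 23 rose, as did 5 of 16 DNA damage genes and most genes of chromosome V. The gene lists were chosen with earlier results of these data known, so their counts only describe these arrays. The deletant differed from wild type in chromosome V levels as well as in SWI6. The part of each in the changes off that chromosome was not tested. In all, limma called 567 genes (10.4% of those tested), 401 higher (7.36%) and 166 lower (3.05%). On chromosome V, 215 of the 259 genes were higher (83%) and none was lower. On the other chromosomes 186 genes were higher (3.58% of 5190) and 166 lower (3.2%), so 352 were called (6.78%). With each array centred on the genes off chromosome V, the same chromosomes held 259 higher and 141 lower genes. The falls were the larger changes there, with 38 past 2-fold, against 8 rises of that size. At 1.5-fold the counts were 74 falls and 25 rises. All 3 deletant arrays lay beyond all 3 wild type arrays, or all below them, for 1795 genes (32.9% of all). The largest rises and falls named below were picked among such genes, so their lack of overlap is no added evidence. These counts lean on single arrays and on the arrays that share the fit. With only the 6 LoaOOH arrays, 497 genes were called, with 155 rises and 131 falls off chromosome V, and 226 of the 352 calls there were kept. Off chromosome V, the rises numbered 98, 104 and 122 without deletant replicate 2, 3 and 1 and 100 without wild type replicate 1. The falls numbered 94 without deletant replicate 2 and 86 without wild type replicate 1.

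**Figure D1:**
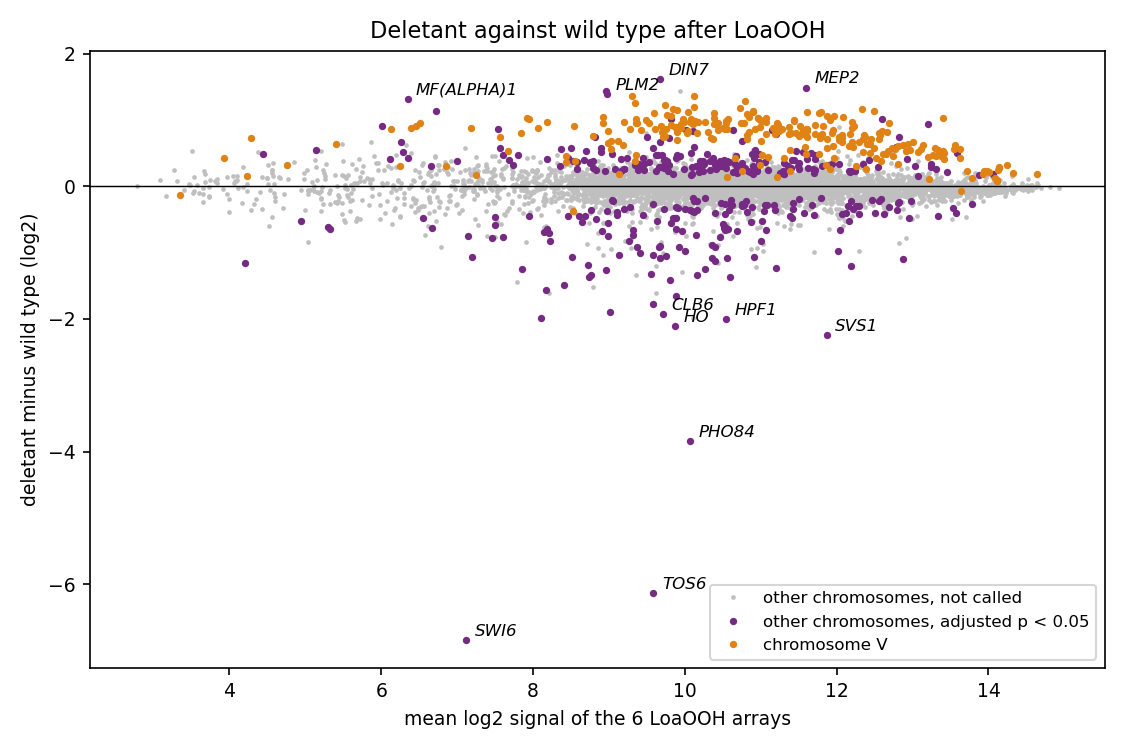
Each point is a gene. The horizontal axis gives its mean log2 signal over the 6 LoaOOH arrays and the vertical axis the log2 difference, deletant minus wild type. Purple points are genes of other chromosomes with an adjusted p under 0.05, and orange points are all 259 chromosome V genes. SWI6, TOS6 and PHO84 lie lowest, and the orange points form a band above the rest that narrows towards high signals.

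Among SBF targets, the deepest fall was that of TOS6 (YNL300W), which encodes a cell wall protein anchored to the membrane by a glycolipid. TOS6 was at 6.22, 6.64 and 6.70 in the deletant, against 12.54, 12.69 and 12.74 in wild type. It fell by 6.14 ± 0.16 (SE), which is 70.5-fold (adjusted p = 2.07e-12), and yet stayed above background in each deletant array. SVS1 (YPL163C), another wall and vacuolar protein, was at 10.64, 10.91 and 10.71 in the deletant, against 12.90, 12.90 and 13.16 in wild type. That is 4.73-fold lower (adjusted p = 2.83e-09), on levels that remained high in both strains. HO, the endonuclease that starts mating-type switching and a classic SBF target, was at 8.69, 8.72 and 9.02 in the deletant, against 10.58, 11.02 and 11.17 in wild type. It was 4.32-fold lower (adjusted p = 7.33e-07), and no deletant array came near a wild type one.

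The other SBF targets that fell did so by less. EXG1, the main exo-glucanase of the cell wall, was at 13.11 in each deletant array and at 13.54, 13.54 and 13.60 in wild type. Its fall was small, 1.37-fold, and its spread smaller still (adjusted p = 4.38e-06). AXL2, which marks the axial bud site, was 1.56-fold lower (adjusted p = 0.00121), and TOS8, a homeodomain protein gene, 1.59-fold lower (adjusted p = 0.00311). TOS2, which encodes a protein of the bud neck and growing bud, was 1.29-fold lower (adjusted p = 0.0189), a call lost without deletant replicate 3 or wild type replicate 2 or 3 (adjusted p 0.0745 to 0.101).

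In the other direction, 3 SBF targets rose. PCL2, a G1 cyclin that acts with the kinase Pho85, was at 9.51, 9.17 and 9.15 in the deletant, against 8.64, 8.86 and 8.87 in wild type, 1.40-fold higher (adjusted p = 0.00493, and 0.0523 with only the 6 LoaOOH arrays). WSC2, a sensor of cell wall stress, was 1.38-fold higher (adjusted p = 0.00339). GAS1, a glucan-remodelling enzyme, was 1.13-fold higher (adjusted p = 0.0454) and was no longer called when an array other than wild type replicate 3 was dropped (adjusted p 0.0639 to 0.173).

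In all, 7 of the 31 measured SBF targets fell and 3 rose, while 21 were not called. Of all genes off chromosome V, 3.2% fell and 3.58% rose. The median difference of the list was 0.03, close to the -0.01 of genes off chromosome V. With 1 array left out, 6 or 7 fell and 2 or 3 rose.

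The G1 cyclins best known as SBF targets did not pass the test. CLN1 was at 11.39, 11.36 and 11.16 in the deletant, against 11.04, 11.25 and 11.35 in wild type, a difference of 0.09 ± 0.09 (SE, adjusted p = 0.65). CLN2 was at 11.09, 11.34 and 11.03 in the deletant, against 11.12, 11.26 and 11.25 in wild type, a difference of -0.06 ± 0.10 (adjusted p = 0.812). In both the groups overlap. PCL1, another partner of Pho85, differed by -0.04 ± 0.13 (adjusted p = 0.902). KRE6, a gene of beta-glucan synthesis in the wall, differed by 0.06 ± 0.06 (adjusted p = 0.606).

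MBF targets moved both ways. CLB6 (YGR109C), an S-phase cyclin gene, was at 8.69, 8.65 and 8.93 in the deletant, against 10.52, 10.83 and 10.69 in wild type. It fell 3.80-fold (adjusted p = 2.37e-07), with no overlap between the groups. Its partner S-phase cyclin CLB5 was at 9.91, 9.82 and 9.97 in the deletant, against 10.15, 10.35 and 10.46 in wild type, a difference of -0.42 ± 0.14 that did not pass (adjusted p = 0.0836). The groups were apart, as they were for 32.9% of all genes. CLB5 was called lower with only the 6 LoaOOH arrays in the fit (adjusted p = 0.04) and after quantile normalization (0.0496). MCD1, the cleaved subunit of cohesin, fell 1.53-fold (adjusted p = 0.00782), and without deletant replicate 2 its adjusted p was 0.0505.

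PLM2 (YDR501W), a chromatin-associated protein gene induced by DNA damage, rose most on this list. It was at 9.75, 9.58 and 9.68 in the deletant, against 8.27, 8.34 and 8.24 in wild type, 2.62-fold higher (adjusted p = 1.43e-07). RAD54, a motor protein of homologous recombination, was at 10.14, 10.12 and 10.22 in the deletant, against 9.48, 9.43 and 9.38 in wild type, 1.66-fold higher (adjusted p = 5.46e-07). DUN1, the checkpoint kinase that raises nucleotide supply after damage, was 1.73-fold higher (adjusted p = 0.000505). IRR1, another cohesin subunit, was 1.43-fold higher (adjusted p = 6.97e-05), and RFA2, a subunit of the single-strand DNA binding protein RPA, differed by 0.39 ± 0.08 (adjusted p = 0.00325). The 3 deletant arrays lay above the 3 wild type arrays for each of these called genes. Groups were apart for 32.9% of all genes, so this is no added evidence.

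Replication genes on the list changed by less, where they passed. The replication initiation genes CDC6 (0.58) and CDC45 (0.29), the polymerase subunit gene DPB2 (0.39), the cohesion factor gene CTF18 (0.29) and the RPA subunit gene RFA3 (0.29) rose, with adjusted p between 0.0226 and 0.0354. Each lost its call without at least 3 of the 6 arrays in turn. CDC21, thymidylate synthase, differed by 0.24 ± 0.09 (adjusted p = 0.121), and POL1, the catalytic subunit of DNA polymerase alpha, by -0.18 ± 0.06 (adjusted p = 0.0828). RNR1, the large subunit of ribonucleotide reductase and a chromosome V gene, differed by 0.30 ± 0.11 (adjusted p = 0.0936).

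Of 38 measured MBF targets, 11 rose and 2 fell, with a median of 0.09. Off chromosome V, 10 of 36 rose and 2 fell, with a median of 0.07, beside 3.58% and 3.2% of all genes there. The rises numbered 6 without deletant replicate 2 or 3 or wild type replicate 1, 7 without wild type replicate 2, and up to 9 without one of the others. The falls numbered 4 with only the 6 LoaOOH arrays and 5 after quantile normalization. The rises kept with any 1 of the 6 arrays left out were RFA2, RAD54, IRR1, DUN1 and PLM2 off chromosome V, with SWI4 on it. CLB6 was the 1 fall kept in each of those fits.

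**Figure D2:**
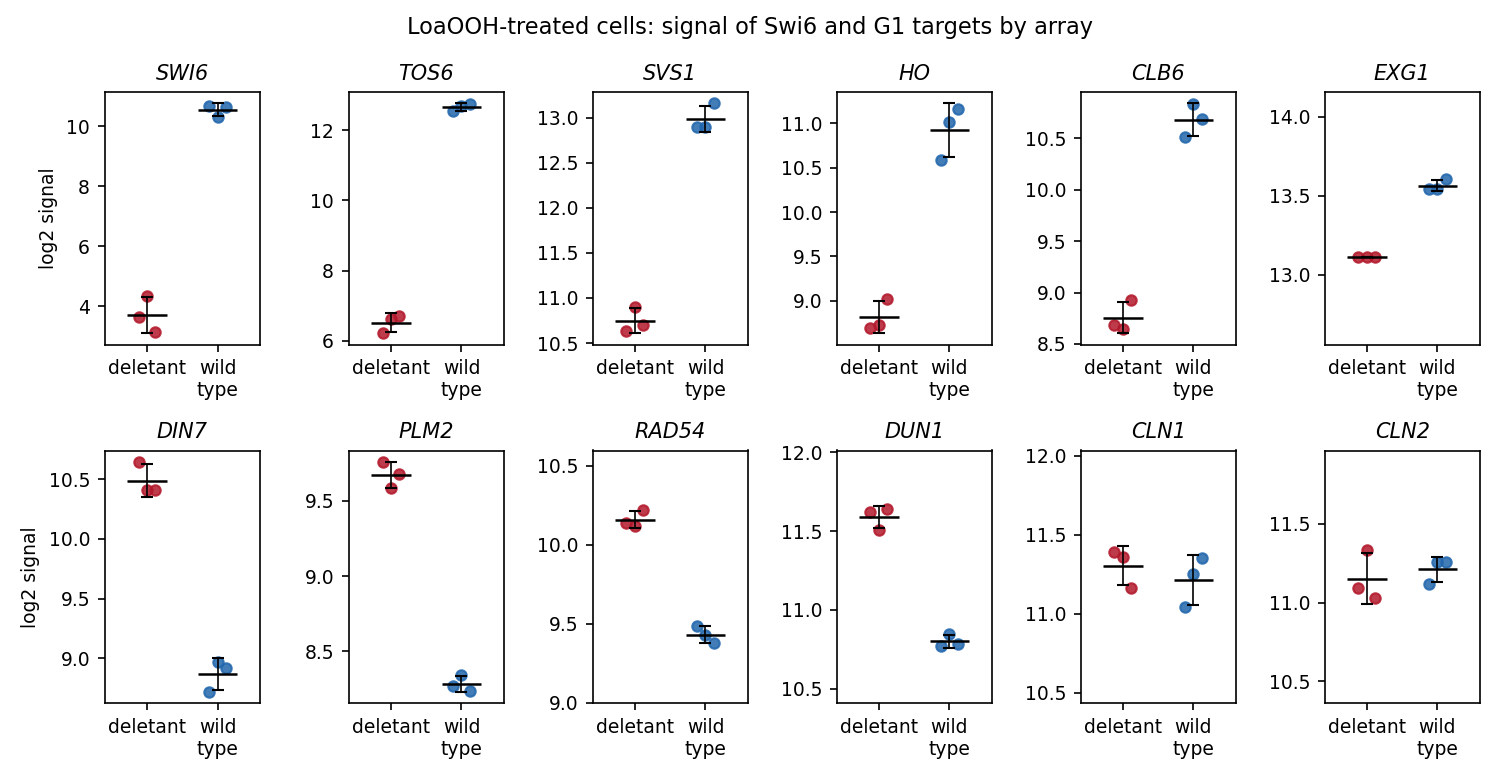
The log2 signal of each LoaOOH array is shown for SWI6 and 11 other genes, with deletant arrays in red on the left and wild type arrays in blue on the right of each panel. Lines give the mean and bars the SD of 3 arrays, and each panel has its own vertical scale. The groups are apart for the genes from SWI6 to DUN1 and overlap for CLN1 and CLN2.

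The gene with the largest rise off chromosome V was DIN7 (YDR263C), a mitochondrial nuclease gene that is induced by DNA damage. It was at 10.64, 10.41 and 10.41 in the deletant, against 8.72, 8.97 and 8.92 in wild type, a rise of 1.62 ± 0.09 (SE) or 3.07-fold (adjusted p = 3.12e-08). On the DNA damage list of 16 measured genes, 5 rose, namely DIN7, PLM2, RAD54, DUN1 and, on chromosome V, DDI1. All 5 kept their call with any 1 array left out. Among the 14 off chromosome V, 4 rose, beside 3.58% of all genes there. The MBF list also holds PLM2, RAD54 and DUN1, so the counts of the 2 lists are not separate evidence. RAD16, a nucleotide excision repair gene, fell by 0.39 (adjusted p = 0.0222), and its call was lost without deletant replicate 2 or 3 or wild type replicate 1 (adjusted p 0.0625 to 0.118). The median of the list was 0.01.

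Among the subunits and regulators of the G1 factors, MBP1 was at 9.001, 8.92 and 9.03 in the deletant, against 9.05, 9.01 and 9.02 in wild type (adjusted p = 0.879). SWI4, which lies on chromosome V, was at 10.19, 10.28 and 10.56 in the deletant, against 8.94, 9.24 and 9.20 in wild type, 2.33-fold higher (adjusted p = 7.78e-05). So the DNA-binding subunit of SBF was higher, while that of MBF differed by -0.04 and did not pass. With the shift of its chromosome removed, SWI4 differed by 0.45 (adjusted p = 0.0782).

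MSA2, a gene for an activator of G1 transcription, rose by 0.48 ± 0.10 (SE, adjusted p = 0.00512). BCK2, a chromosome V gene that promotes G1 transcription without Cln3, rose by 0.49 (adjusted p = 0.0186). Its call was lost without deletant replicate 1 or 3 or wild type replicate 2 or 3 (adjusted p 0.0667 to 0.0810), and with the chromosome's shift removed it differed by -0.29 (adjusted p = 0.196). CLN3, the cyclin that starts the programme, differed by 0.10 ± 0.11 (adjusted p = 0.685). Of the 16 measured genes in this list, 3 rose and SWI6 itself fell. Among the 14 off chromosome V, 1 rose (MSA2), beside 3.58% of all genes there. Nothing particular to this list is read from these counts.

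In cell cycle lists outside G1, 0 of 7, 1 of 14 and 1 of 19 members off chromosome V were called, beside 6.78% of all genes there. Nothing particular to these lists is read from counts so near that share. None of the 7 measured core histone genes passed in limma, with 1 at an unadjusted p under 0.05, a median of -0.15 and a range from -0.33 to -0.02. Of 14 CLB2-cluster genes of G2 and M phase, HST3, a histone deacetylase gene, rose by 0.24 (adjusted p = 0.0458), and was no longer called when an array other than wild type replicate 3 was dropped. Of 21 genes of daughter cells and the M/G1 boundary, CDC6 rose, as did MCM3 and DSE1 on chromosome V.

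On the cell wall integrity list, the genes that were called were all lower. CWP1, a mannoprotein of the wall, was at 12.57, 12.25 and 12.16 in the deletant, against 13.24, 13.44 and 13.58 in wild type, 2.14-fold lower (adjusted p = 0.000199). KDX1, a pseudokinase induced through the cell wall integrity pathway, was 1.68-fold lower (adjusted p = 0.000902). YPS3, a cell surface protease, was at 8.71, 8.40 and 8.97 in the deletant, against 11.29, 10.11 and 9.996 in wild type, 3.41-fold lower (adjusted p = 0.0023). In YPS3 the groups were apart, and wild type replicate 1 stood well above the other 2 wild type arrays.

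RLM1, the transcription factor at the end of that pathway, and CHS3, the main chitin synthase, made up the 5 of 18 cell wall integrity genes that fell. Of all genes off chromosome V, 3.2% fell. RLM1 fell by 0.48 (adjusted p = 0.04) and lost its call without any deletant array or wild type replicate 1 (adjusted p 0.0884 to 0.201). CHS3 fell by 0.22 (adjusted p = 0.0458) and lost its call without each of the 6 arrays in turn (adjusted p 0.0679 to 0.15). None of the 18 rose, and the median was -0.15. The falls numbered 3 without any 1 of the deletant arrays or wild type replicate 1. SBF targets that encode wall proteins, TOS6, SVS1 and EXG1, are on another list.

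HPF1, a mannoprotein that lowers protein haze in wine, had the largest fall among 20 other wall proteins. It was at 9.34, 9.87 and 9.43 in the deletant, against 11.76, 11.46 and 11.42 in wild type, 4.001-fold lower (adjusted p = 3.91e-06). TIR3, a mannoprotein of anaerobic cells, fell by 0.74 (adjusted p = 0.00465), while TIP1, TIR2 and SCW10 rose. TIP1, a cold-induced mannoprotein, was at 13.63, 13.80 and 13.59 in the deletant, against 12.21, 12.98 and 13.00 in wild type (adjusted p = 0.00601). TIR2 lost its call without deletant replicate 2 or 3 or wild type replicate 1 (adjusted p 0.0555 to 0.11). SCW10 lost it without deletant replicate 3 or wild type replicate 2 (adjusted p 0.0935 and 0.104).

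After TOS6, the largest fall was in PHO84 (YML123C), the high-affinity phosphate transporter. PHO84 was at 8.36, 8.39 and 7.71 in the deletant, against 13.07, 11.06 and 11.85 in wild type. It fell by 3.84 ± 0.55 (SE), or 14.3-fold (adjusted p = 0.000144), with the wild type arrays far apart and the lowest of them still well above the deletant. The acid phosphatase PHO5 was at 8.42, 8.39 and 8.19 in the deletant, against 10.04, 8.72 and 10.03 in wild type, 2.40-fold lower (adjusted p = 0.0302). Its call was lost when any 1 array except wild type replicate 2 was left out (adjusted p 0.0669 to 0.147). PHO11, another acid phosphatase whose probe set also matches a close copy of the gene, was 2.54-fold lower (adjusted p = 0.00527). Its call was lost with only the 6 LoaOOH arrays (adjusted p = 0.0523) and in the 12 arrays whose labels start with CT, replicates 1 and 2 of each group (0.156). VTC3, of the polyphosphate synthesis complex, fell by 0.45 (adjusted p = 0.0038). Of 16 measured phosphate genes, 4 fell and 2 rose, VTC1 and PHM8 on chromosome V, and the median was -0.32. Among the 14 off chromosome V, 4 fell, beside 3.2% of all genes there. With the chromosome's shift removed, VTC1 differed by -0.32 (adjusted p = 0.012) and PHM8 by -0.31 (adjusted p = 0.102). PHM8 also lost its call without deletant replicate 1 (adjusted p = 0.0541) or wild type replicate 2 (0.0542), which left 1 rise.

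Iron supply genes fell more often than they rose. FRE1, the plasma membrane ferric reductase, was at 9.50, 9.50 and 9.54 in the deletant, against 10.69, 10.37 and 10.45 in wild type, 1.98-fold lower (adjusted p = 2.54e-05). FET3, the multicopper oxidase of high-affinity uptake, was at 10.48, 10.87 and 10.39 in the deletant, against 11.58, 12.03 and 11.82 in wild type, 2.35-fold lower (adjusted p = 0.00366). TIS11, which promotes decay of mRNAs for iron-using proteins, was at 7.09, 6.9985 and 7.27 in the deletant, against 9.87, 9.24 and 8.19 in wild type. The deletant arrays agreed closely for TIS11 while the wild type arrays were spread widely, and the fall was 3.94-fold (adjusted p = 0.00597). HMX1, the haem oxygenase, had the same pattern, at 8.005, 7.95 and 8.18 in the deletant against 9.94, 9.50 and 8.82 in wild type (adjusted p = 0.00597). FIT2, a mannoprotein that holds siderophores in the wall, fell 2.67-fold (adjusted p = 0.0198), with its call lost without deletant replicate 1 or wild type replicate 1 or 2 (adjusted p 0.0908 to 0.0933). CCC2, the copper transporter that loads Fet3, fell by 0.44 (adjusted p = 0.00215).

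Of 27 iron genes 11 fell and 2 rose, with a median of -0.25. Among the 25 off chromosome V, 11 fell and 2 rose, beside 3.2% and 3.58% of all genes there. One of those that rose was ISU2, a scaffold for iron-sulfur cluster assembly, at 0.52 (adjusted p = 0.0019). The falls numbered 5 without deletant replicate 1 or wild type replicate 2, 6 without wild type replicate 1 and 7 without deletant replicate 2 or 3. The 5 called in each such fit were FET3, FRE1, TIS11, HMX1 and CCC2.

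Other falls included 3 arginine genes, 1 of 10 hexose transporter genes and 1 of 9 zinc genes, beside 3.2% of all genes off chromosome V. Nothing particular to the hexose and zinc lists is read from 1 fall each. The medians of the hexose and zinc lists were -0.01 and -0.02. ARG3, ornithine carbamoyltransferase, was at 9.88, 9.87 and 9.98 in the deletant, against 11.55, 11.25 and 11.05 in wild type, 2.59-fold lower (adjusted p = 3.28e-05). ARG8 fell by 0.58 (adjusted p = 0.00739) and ARG1 by 0.33 (adjusted p = 0.0414), which with ARG3 made 3 of the 10 arginine genes measured. The call of ARG1 was lost without each array in turn (adjusted p 0.052 to 0.164). HXT1, a low-affinity glucose transporter, was at 11.38, 11.49 and 11.72 in the deletant, against 12.63, 12.46 and 12.44 in wild type, 1.97-fold lower (adjusted p = 2.63e-05). On the same list RGT2 rose (adjusted p = 0.0152), a call lost without deletant replicate 3 or wild type replicate 3 (adjusted p 0.0694 to 0.076). ZRT1, the high-affinity zinc transporter, fell by 1.05 (adjusted p = 0.0257), a call lost without deletant replicate 2 or 3 or wild type replicate 3 (adjusted p 0.0736 to 0.118).

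Several of the remaining large falls off chromosome V had wild type replicate 1 as the highest array. PRM10, a predicted membrane protein regulated by pheromone, was at 7.84, 8.10 and 8.22 in the deletant, against 10.91, 9.60 and 9.37 in wild type (adjusted p = 0.00416). TPO2, a polyamine exporter, was at 9.24, 8.82 and 9.08 in the deletant, against 11.60, 10.39 and 10.13 in wild type (adjusted p = 0.0176). YJL107C, an uncharacterised gene, fell by 1.56 (adjusted p = 0.0136), and BAG7, a regulator of Rho1, by 1.49 (adjusted p = 0.00966). Without wild type replicate 1, the adjusted p of TPO2 was 0.099, that of YJL107C 0.0767 and that of BAG7 0.0617. Leaving out deletant replicate 2 took the call from TPO2 (0.0715), YJL107C (0.0536) and BAG7 (0.0538) as well, and without deletant replicate 3 the adjusted p of TPO2 was 0.0501. Of the 352 genes called off chromosome V, 176 were still called without wild type replicate 1 and 185 without deletant replicate 2. The part of that array in each fall was not tested beyond these fits.

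Genes for using poor nitrogen sources, which cells with a rich nitrogen supply keep low (nitrogen catabolite repression), were higher. MEP2 (YNL142W), the high-affinity ammonium permease, was at 12.18, 12.53 and 12.32 in the deletant, against 10.84, 10.91 and 10.81 in wild type, 2.80-fold higher (adjusted p = 4.61e-06). DAL80, a GATA repressor of the same genes, was at 6.89, 7.63 and 7.35 in the deletant, against 6.10, 6.21 and 6.15 in wild type, 2.20-fold higher (adjusted p = 0.000138). DAL3, of allantoin breakdown, was at 10.06, 10.57 and 10.34 in the deletant, against 9.37, 9.33 and 9.24 in wild type, 2.02-fold higher (adjusted p = 0.00042). In all 3 genes the wild type arrays lay closer together than the deletant arrays. The groups were apart too, but the rule that picked the largest rises required this, and it held for 32.9% of all genes.

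CAN1, the arginine permease, lies on chromosome V and rose 2.18-fold (adjusted p = 2.52e-07). With the chromosome's shift removed it differed by 0.35 (adjusted p = 0.0611). Of 23 measured nitrogen genes 14 rose and none fell, with a median of 0.33. Off chromosome V the count was 13 of 22, beside 3.58% of all genes there. For the whole list it was 8 without deletant replicate 2 and 9 without wild type replicate 1 or 2. It was up to 10 without one of the others, and 7 genes were called in each such fit.

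Of the other large rises off chromosome V, MF(ALPHA)1 encodes alpha-factor. It was at 6.72, 7.29 and 7.01 in the deletant, against 5.58, 5.42 and 6.07 in wild type, 2.49-fold higher (adjusted p = 0.000494). Both levels were low for the array, and the other 3 alpha-cell genes were not called. PRY1, a secreted sterol-binding protein, was 2.02-fold higher (adjusted p = 0.00384). OPT2, an oligopeptide transporter, was at 9.53, 9.51 and 9.99 in the deletant, against 7.48, 8.47 and 8.76 in wild type. OPT2 rose 2.71-fold (adjusted p = 0.0294) and was no longer called when an array other than wild type replicate 3 was dropped (adjusted p 0.0505 to 0.159). NDJ1, a telomere protein of meiosis, rose by 0.91 (adjusted p = 0.0103, and 0.0533 without deletant replicate 3).

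Genes that answer oxidants and lipids were looked at because all 6 arrays came from LoaOOH-treated cells. With 6.78% of all genes off chromosome V called, lists of this size would hold few calls at that share, and these counts are given as values only. None of 22 Yap1 antioxidant genes, 13 drug efflux genes, 23 ergosterol genes and 15 glycolytic genes passed the limma test, and their medians lay between -0.04 and 0.002. An unadjusted p under 0.05 was found for 1 Yap1, 0 drug efflux, 3 ergosterol and 1 glycolytic gene. Of 28 general stress genes under Msn2 and Msn4, HSP78 and SSA4 rose, both chaperone genes, with SSA4 on chromosome V. HSP78 rose by 0.39 (adjusted p = 0.04) and was no longer called when an array other than wild type replicate 2 was dropped (adjusted p 0.0507 to 0.172). Of 23 Hsf1 chaperone genes the same 2 rose, and HSP82, an Hsp90, fell by 0.36 (adjusted p = 0.0444). HSP82 lost its call without deletant replicate 2 or 3 or wild type replicate 1 or 2 (adjusted p 0.154 to 0.17). In the beta-oxidation list of 18, in ribosome biogenesis (42 genes) and in Gcn4 amino acid synthesis (30 genes), every gene called was on chromosome V.

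**Figure D3:**
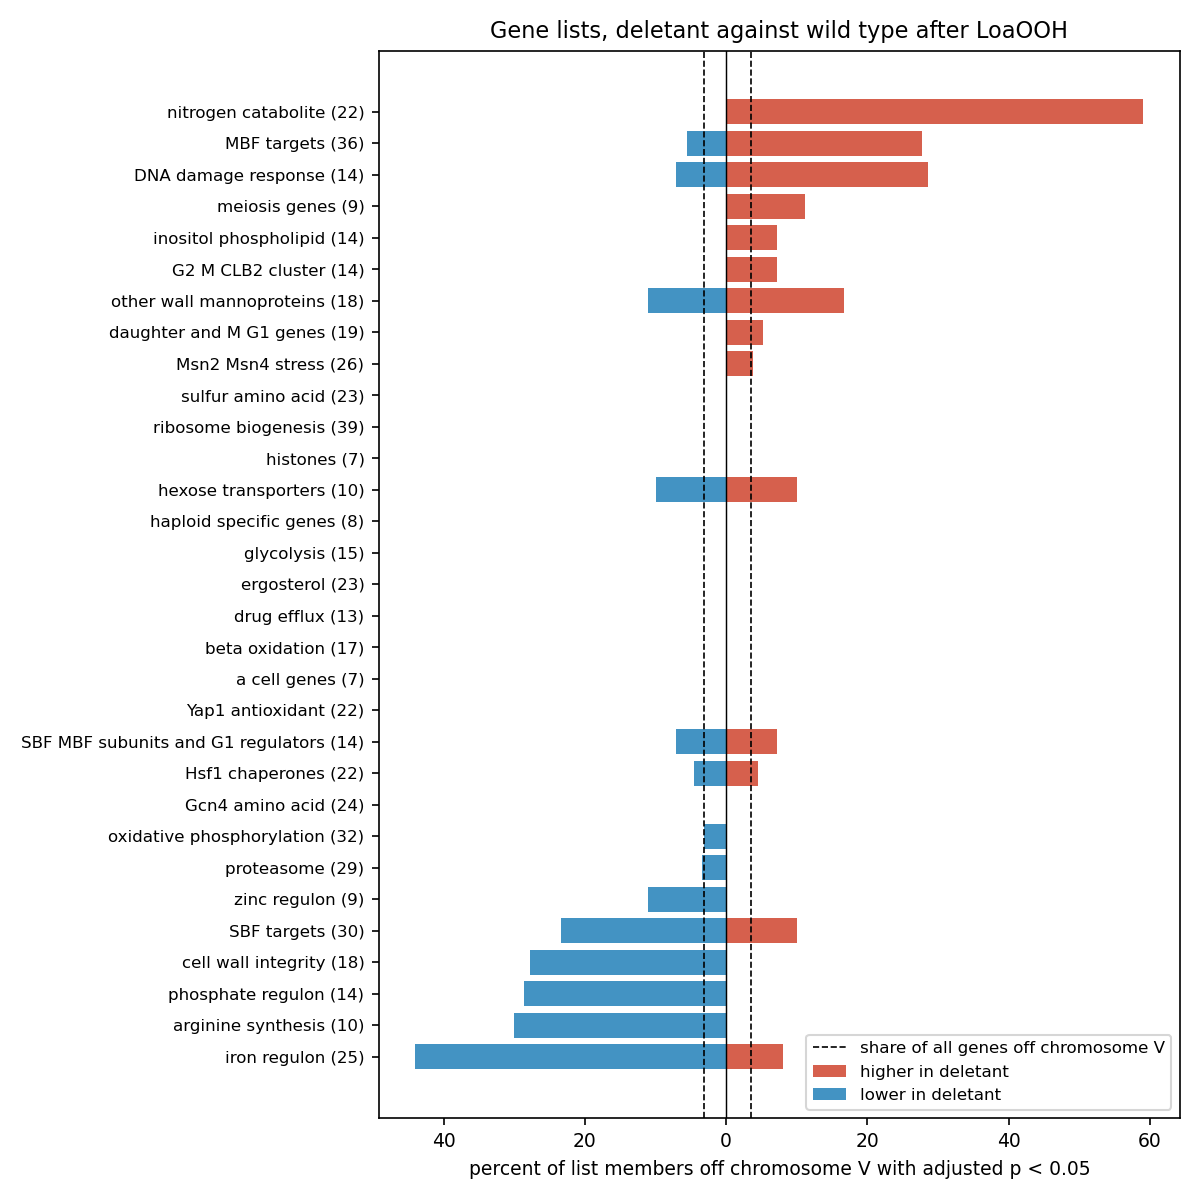
Bars give the percent of each list's members off chromosome V that were called, higher in the deletant to the right and lower to the left, with the number of such members in brackets. Dashed lines mark the shares over all genes off chromosome V, 3.58% higher and 3.2% lower. Nitrogen catabolite genes reach farthest to the right (13 of 22) and iron genes farthest to the left (11 of 25). The lists were chosen with earlier results of these data known.

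Chromosome V was set apart by a rise along its whole length. The median difference of its 259 genes was 0.78, or 1.72-fold, with quartiles of 0.52 and 0.95, and 256 of them (98.8%) were positive. Medians of the other 15 chromosomes ran from -0.03 to 0.03. Against the wild type LoaOOH mean, the chromosome's median was 0.75, 0.77 and 0.80 in the 3 deletant arrays and between -0.01 and 0.01 in the 3 wild type arrays. In 10 bins of gene order from one end to the other it ran from 0.70 to 0.81, so each bin lay far above the medians of the other chromosomes.

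**Figure D4:**
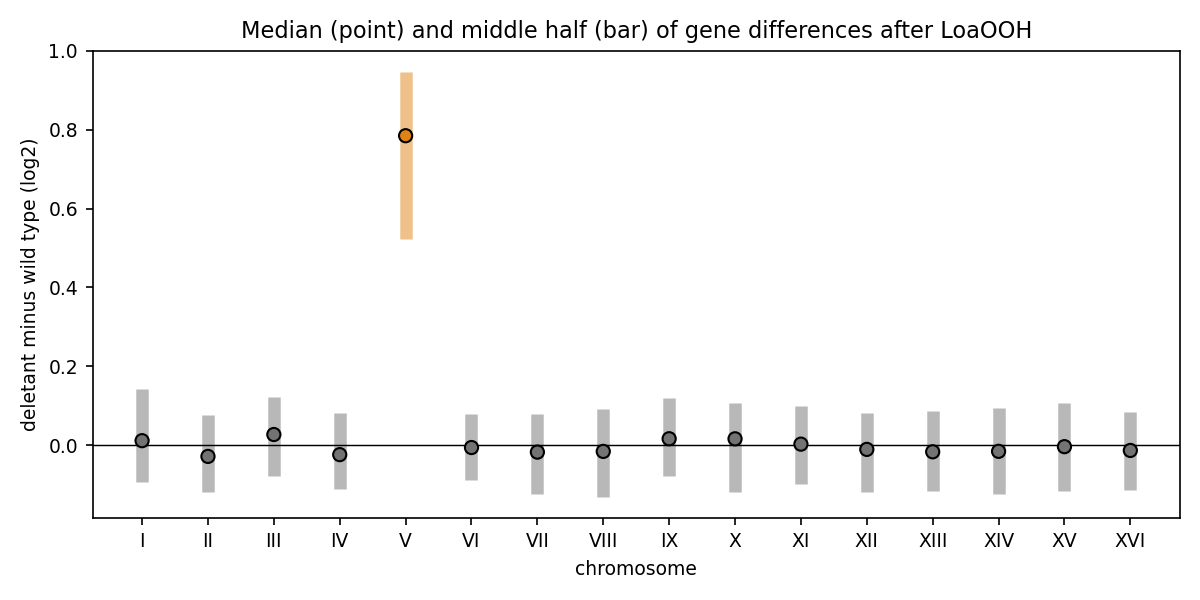
Points give the median and bars span the lower to the upper quartile of the log2 differences, deletant minus wild type after LoaOOH, over the genes of each chromosome. Chromosome V has a median of 0.78, and the other 15 lie between -0.03 and 0.03.

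The size of the rise on chromosome V varied with signal. With its genes ordered by untreated wild type level and cut into 4 equal parts, from lowest to highest, the chromosome's median was 0.87, 0.95, 0.79 and 0.48, while genes of other chromosomes in the same ranges had medians of 0.02, 0.01, -0.02 and -0.05. The largest rises were in AVT2, a putative amino acid transporter (1.37 ± 0.09, SE), CEM1, a mitochondrial fatty acid synthesis enzyme (1.36 ± 0.14), and SPC25, a kinetochore subunit (1.28 ± 0.07). SPC25 was at 11.40, 11.53 and 11.38 in the deletant, against 10.13, 10.15 and 10.20 in wild type (adjusted p = 2.63e-08). RTT105, a chaperone of RPA, rose by 1.25 (adjusted p = 5.02e-06). Once the chromosome's own shift was subtracted from the mutant arrays, 14 of the 259 genes were called higher and 38 lower than the rest of the chromosome. The shift was the same for all genes of an array, though the median rise was 0.48 in the brightest part. A bright gene could thus be called lower without differing from genes of like signal. MNN1, a mannosyltransferase gene and SBF target, was among the lower ones, at -0.52 (adjusted p = 0.00171) where it had differed by 0.25 before the subtraction (adjusted p = 0.0814). RNR1 was another, at -0.48 after the subtraction (adjusted p = 0.0264). The labels name no change of chromosome V, and gene copy number was not measured.

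Most genes called after LoaOOH differed the same way in untreated cells. Untreated, limma called 551 genes between deletant and wild type (10.1% of all). Off chromosome V, 185 of the 186 genes that rose after LoaOOH differed in the same direction in untreated cells. Of them 127 were called higher there, which is 68.3% of the 186 and 77% of the 165 called untreated, where 3.18% of all genes off chromosome V were called higher. Of the 166 that fell, 165 had the same direction and 112 were called lower, which is 67.5% of the 166 and 65.1% of the 172 called untreated (3.31% of all). The group means of the 2 comparisons share no array, but both tests take each gene's spread from the same fit of all arrays. A gene with a small spread is more readily called in both, so the overlap of calls is not independent evidence. The 2 comparisons may also share cultures. Across genes, the deviations of the LoaOOH and untreated arrays with the same number from their group means correlated at 0.264, 0.25 and 0.055 in the deletant and at 0.856, 0.502 and 0.64 in wild type.

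TOS6 differed by -6.14 after LoaOOH and by -5.97 untreated, and CLB6 by -1.93 after LoaOOH and -2.13 untreated. DIN7 differed by 1.62 after LoaOOH and 1.496 untreated. For TIP1 the differences were 0.94 after LoaOOH and 0.37 untreated (adjusted p = 0.32 untreated). The difference between the differences was itself tested by limma, and no gene passed (0% called), with 20 genes at an unadjusted p under 0.05. With genotype and replicate number as a block, a choice made after the correlations above were seen, no gene passed and 72 had an unadjusted p under 0.05. In the limma fit without the block, YER175W-A had the smallest p, with a difference of 0.52 (unadjusted p = 0.00221, adjusted p = 0.9998). Its deletant and wild type means lay below background.

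**Figure D5:**
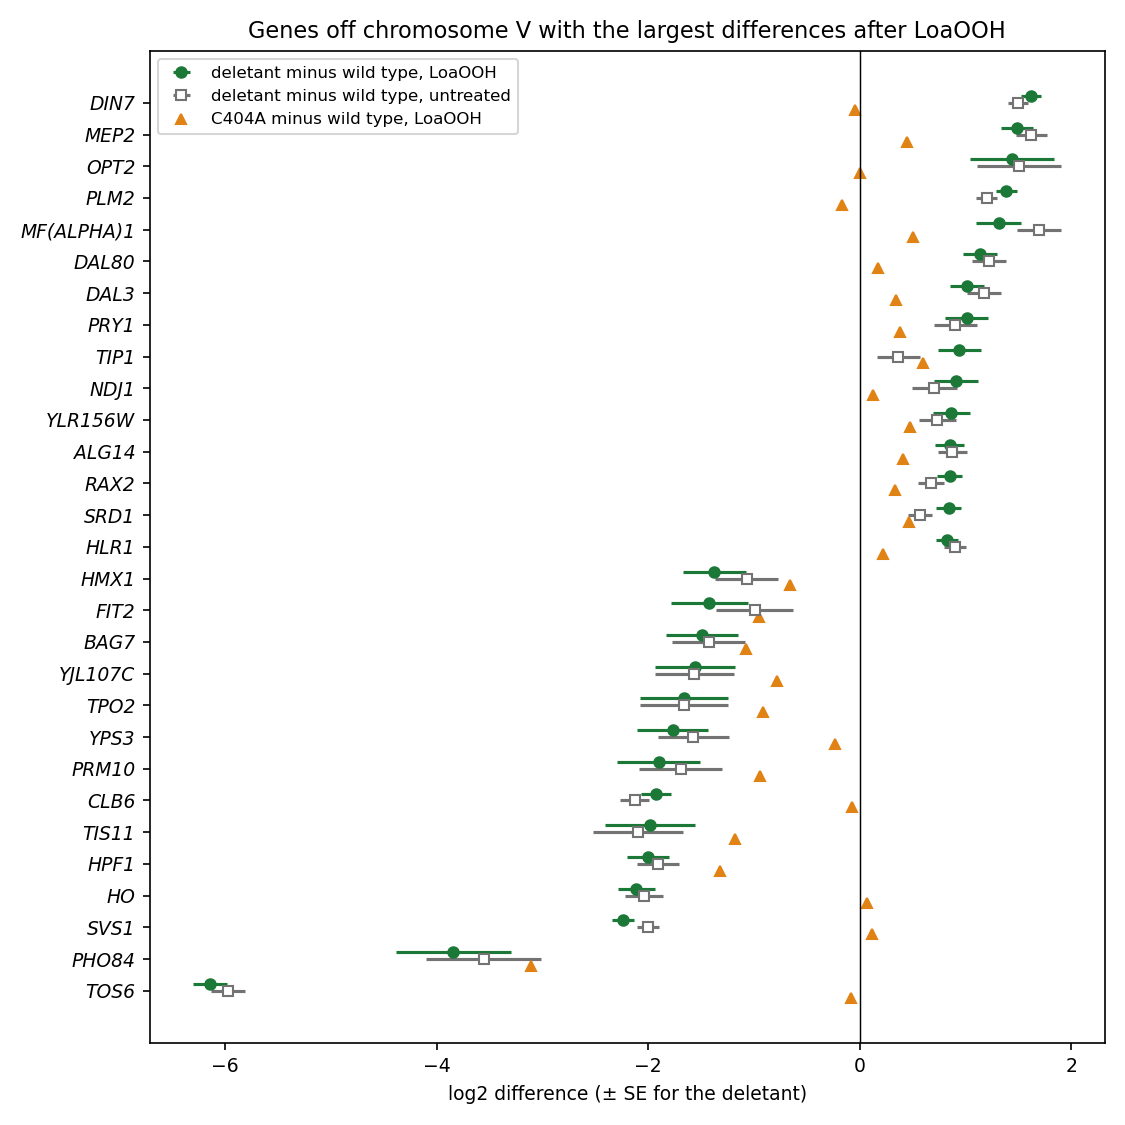
For the 29 genes off chromosome V with the largest rises and falls, other than SWI6, green circles give the log2 difference of the deletant from wild type after LoaOOH and white squares that in untreated cells, with bars of 1 SE. Orange triangles give the C404A mutant minus wild type after LoaOOH, measured against the same wild type arrays. Circles and squares lie side by side for TOS6 (-6.14 and -5.97), where the triangle is near 0, while for PHO84 all 3 are below -3.

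The C404A mutant, set against the same wild type LoaOOH arrays, had SWI6 mRNA near the wild type level (-0.24, adjusted p = 0.559). Limma called 402 genes in that comparison (7.38%) and 79 (1.45%) between C404A and the deletant after LoaOOH. The comparisons share arrays, so their values are given side by side only. TOS6 differed from wild type by -6.14 in the deletant and by -0.08 in C404A. SVS1 differed by -2.24 in the deletant and 0.11 in C404A, and HO by -2.11 in the deletant and 0.07 in C404A. For CLB6 the differences were -1.93 in the deletant and -0.07 in C404A. C404A and the deletant differed in each of these 4 genes (adjusted p from 2.51e-12 for TOS6 to 1.93e-06 for HO).

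DIN7 differed from wild type by 1.62 in the deletant and by -0.04 in C404A, and PLM2 by 1.39 in the deletant and -0.17 in C404A. The direct differences between C404A and the deletant, -1.66 and -1.56, passed the test (adjusted p = 3.77e-08 and 9.04e-08). MEP2 differed from wild type by 1.49 in the deletant and 0.45 in C404A, with the direct difference called too (-1.04, adjusted p = 0.00127). PHO84 differed by -3.84 in the deletant and -3.11 in C404A, and HPF1 by -2.00 in the deletant and -1.32 in C404A. ARG3 differed by -1.37 in the deletant and -1.17 in C404A, and HXT1 by -0.98 in the deletant and -1.03 in C404A. Each of these 4 genes was called in both strains against wild type. The direct differences between the strains did not pass for them (adjusted p from 0.128 for HPF1 to 0.879 for HXT1), which does not show that they are equal. The chromosome V median was 0.77 ± 0.026 in the deletant and 0.71 ± 0.04 in C404A (SD, n = 3 each).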

How the data were processed

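RNA was measured on Affymetrix arrays, 1 per sample, in 6 groups of 3 samples. The submitters' processing notes name PLIER and Affymetrix Expression Console for the deposited values, whose log2 scale was read from their range (2.47 to 14.99). Versions, settings and any normalization by the authors are not stated in the labels or notes used. Of the 18 columns, 0 went unused.

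Probe sets were named from the platform annotation. Of 10928, 5498 match 1 yeast gene and 1746 another organism. Of several probe sets for a gene (47 genes), 1 without a suffix letter came first, then the brightest, which left 5449 genes. None was filtered out, and 58 (1.06%) lay below background. Chromosomes come from the R64 assembly.

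Groups were compared with limma 3.58.1 in R 4.3.3, as 6 group means with moderated variances (14.76 degrees of freedom, median SE 0.102), two-sided, after a check on simulated data. The number of arrays limits precision. Group members, gene lists and tests were chosen with earlier results of these data known. Named genes are the 15 largest rises and falls off chromosome V and the 5 largest rises on it, with groups apart and 1 mean above background, members of the G1 lists, up to 4 with the smallest p and 1 with the largest in other lists, and members called where 8 or fewer were. Some members of the gene lists were not analysed here. Replicate numbers were not used to pair the deletant with wild type arrays. The deviations of same-numbered LoaOOH arrays from their group means correlated only weakly, at 0.044, 0.223 and 0.114. Alternatives were a fit of only the 6 LoaOOH arrays, quantile normalization, centring, the replicate block, the array prefix, chromosome V left out or shifted, dim genes left out, a variance trend, the mean of probe sets and each array left out. The fit of all 18 arrays takes its spread from the untreated and C404A arrays too. It counts same-numbered LoaOOH and untreated arrays as independent, though in wild type their deviations correlated at 0.502 to 0.856. Its degrees of freedom may thus be too many. Promoter sequences were not used here.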

Additional observations from a re-analysis of the deposited data

How the results depend on the processing

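With 3 arrays a group, calls near the threshold rest on single arrays. With chromosome V genes left out of the fit, 255 genes were called, 134 of them higher. With the chromosome V shift removed, 321 were called and 155 were higher, with 14 higher and 38 lower on chromosome V. In the 12 arrays with the prefix CT (replicates 1 and 2), 92 genes were higher and 95 lower off chromosome V. With 1 array left out, 86 to 146 genes were lower, none of them on chromosome V, and 98 to 128 were higher off chromosome V.

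The median difference of chromosome V was 0.8114 after centring on the other genes and 0.7538 in the CT arrays, and 0.7531 to 0.7932 with 1 array left out. Centring moved the median of the other genes from -0.0107 to 0.016. The replicate number was not used to pair the samples in the main fit. With it as a replicate block, 550 genes were called, of which 514 were among the 567. Deviations of same-numbered LoaOOH arrays correlated weakly, at 0.044 to 0.223, which does not show that they share no batch. With the prefix of the array labels, CT or JC, as a term, 482 genes were called. Of the 352 calls off chromosome V, 273 were kept there.

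Several genes near 0 or on chromosome V changed sign. With the chromosome V shift removed, BCK2 was at -0.2866, MNN1 at -0.5202, PHM8 at -0.3069, RNR1 at -0.4753, VTC1 at -0.3198 and YER175W-A at -0.6197. In the CT arrays CLN2 was at 0.0257, PCL1 at 0.1215 and VTA1 at -0.0178. With 1 array left out CLN2 ran from -0.1497 to 0.0036, PCL1 from -0.1438 to 0.0486, STE3 from -0.1191 to 0.018 and VTA1 from -0.0144 to 0.052. In the CT arrays 5 MBF targets and 5 nitrogen genes were higher. With only the 6 LoaOOH arrays, CDC6, CTF18, GAS1, HSP78, HSP82, HST3, PCL2, PHO11, PHO5, RLM1, SCW10, TOS2 and ZRT1 lost their call, while CLB5 and TOS4 gained one, as they did after quantile normalization. In the CT arrays the genes that lost it included FET3, FIT2, CCC2, ISU2, MCD1, RFA2, DAL3, NDJ1, PHO11, PHM8 and VTC3. In those arrays 6 iron genes and 1 phosphate gene were lower. Of 79 called genes followed through the alternatives, 37 kept their call under each alternative run for them. RGT2, also named above as called, was not among the 79. The depth of signal limits SWI6 in the deletant and YER175W-A in both strains, whose means lie below background.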
